A study of Mus musculus with 12 samples.

Results

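Of the 54119 genes with a summed read count in these libraries, 8 were followed here, the endothelial selectins and leukocyte adhesion molecules Sele, Selp, Icam1, Vcam1, Icam2, Alcam, Mcam, and Cd34. They were chosen by name, as a family of surface molecules through which blood leukocytes bind vessel walls, and all 8 were among the 19150 genes that passed the filter on low counts. The RNA came from cerebral vessels isolated from the forebrain of wild-type C57BL6 mice aged 2 to 3 months, after an intraperitoneal injection of PBS or of 10 mg/kg lipopolysaccharide (LPS), a bacterial cell wall product that activates innate immune cells. Vessels were taken either 15 min, 30 min, or else 4 h after LPS, and each of the 4 groups (PBS, LPS 15 min, LPS 30 min, LPS 4 h) had 3 libraries. Each library pooled 1 male and 1 female, so the sexes could not be compared, and the time between injection and collection in the PBS mice is not given in the sources used here. The animals were perfused and the meninges removed before the forebrain was homogenized, and the vessel fraction can hold several cell types of the wall, blood cells the perfusion left, and other brain tissue.

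Leukocytes leave the blood in steps. E-selectin (encoded by Sele) and P-selectin (Selp) on endothelial cells bind sugar-bearing ligands such as PSGL-1 and let leukocytes tether and roll. ICAM-1, ICAM-2, and VCAM-1, members of the immunoglobulin superfamily, then bind leukocyte integrins and hold the cells in place, ICAM-1 and ICAM-2 through LFA-1 and VCAM-1 through VLA-4. P-selectin is stored in the Weibel-Palade bodies of endothelial cells and the granules of platelets, whereas E-selectin is made when the cell is activated. ALCAM and MCAM, which endothelial cells share with other cells of the vessel wall, take part in the passage of lymphocytes into the brain, and CD34 is a sialomucin of capillary endothelium and blood progenitors.

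The sequences before the start sites of 3 of these genes are shown because Sele, Selp, and Icam1 gave 3 different time courses. The letters are the 250 bases upstream of the RefSeq start on the plus strand of build GRCm38.p6, 5′ to 3′, at chr1:164047984-164048233 for Sele, chr1:164115014-164115263 for Selp, and chr9:21015690-21015939 for Icam1. Capitals mark matches, on either strand, to the kB motif GGNNNTTCC bound by NF-kB proteins, to the AP-1 motif TGANTCA, or to the TATA box TATAAA.
Sele: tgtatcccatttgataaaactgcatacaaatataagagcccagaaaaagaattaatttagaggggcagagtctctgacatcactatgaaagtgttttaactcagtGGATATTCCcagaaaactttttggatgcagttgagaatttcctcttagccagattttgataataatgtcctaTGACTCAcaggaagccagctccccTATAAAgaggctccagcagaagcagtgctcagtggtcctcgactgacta
Selp: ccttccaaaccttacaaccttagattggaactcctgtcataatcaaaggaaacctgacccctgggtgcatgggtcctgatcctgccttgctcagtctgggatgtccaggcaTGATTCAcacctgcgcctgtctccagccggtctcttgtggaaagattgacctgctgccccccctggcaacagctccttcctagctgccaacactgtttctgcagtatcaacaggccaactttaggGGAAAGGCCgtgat
Icam1: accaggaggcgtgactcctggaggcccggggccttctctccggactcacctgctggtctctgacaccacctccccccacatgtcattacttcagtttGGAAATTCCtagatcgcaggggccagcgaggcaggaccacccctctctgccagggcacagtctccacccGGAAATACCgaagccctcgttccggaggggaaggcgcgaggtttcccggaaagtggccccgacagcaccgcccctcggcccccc
The Sele stretch held GGATATTCC, 145 to 137 bases before the start, the AP-1 letters TGACTCA 73 to 67 bases before it, and a TATA box 49 to 44 bases before it. Icam1 held GGAAATTCC 153 to 145 bases before its start and GGAAATACC, a match on the opposite strand, 84 to 76 bases before it. Selp held TGATTCA 139 to 133 bases before its start and, on the opposite strand, GGAAAGGCC 14 to 6 bases before it. Of 32851 RefSeq promoters cut to the same length, 15.7% held the kB letters, 6.75% the AP-1 letters, and 12.4% the TATA box, so each motif is common. Cd34, Alcam, and Mcam, the other members with an entry, held none of the 3 motifs in this stretch, and no promoter of Vcam1 or Icam2 was read. With a stricter kB motif, GGGNNTTCC, which 4.98% of promoters held, 0 of the 6 member promoters had a match. These are matches of letters only.

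Library depth ran from 18309177 to 25882028 estimated fragments assigned to transcripts. Levels below are CPM (counts of a gene relative to all counts of its library) scaled by the trimmed mean of M-values (TMM), and a gene is said to have risen or fallen where edgeR's test for a change beyond 1.5-fold gave an adjusted p below 0.05 over all 19150 genes (Benjamini-Hochberg). The endothelial markers Cldn5, Slc2a1, and Flt1 stood at mean levels of 2362, 2735, and 1885 CPM in PBS vessels, as the label of the tissue says. Of the 8 endothelial markers listed, 5 were lower and 2 higher at 4 h than in PBS, and their summed level was 9348 to 9634 CPM in PBS libraries and 6745 to 6813 CPM at 4 h. In bulk RNA, fewer cells of a type and less RNA per cell cannot be told apart. The choroid plexus markers Ttr, Kl, and Folr1 were abundant as well, with a summed level of 10260 to 10689 CPM in PBS, 9154 to 9646 at 15 min, 13528 to 13871 at 30 min, and 17251 to 18141 at 4 h, almost all of it Ttr, and Ttr and Kl passed the test at 4 h. Their part in the values of the members was not tested. Scaled by library size alone, without TMM, the median log2 fold change of all genes at LPS 4 h against PBS was −0.71 in place of −0.01, and the split of called genes was 1907 higher and 8555 lower in place of 3636 higher and 2637 lower. At LPS 30 min against PBS that median was −0.17, and at 4 h against LPS 30 min −0.58.

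At LPS 15 min against PBS, Sele and Icam1 rose and Mcam and Selp fell, both falls being lost in some alternative settings. At LPS 30 min, Sele, Icam1, Selp, and Vcam1 all rose and no member fell (0 lower at an unadjusted p below 0.05 in edgeR and 0 in DESeq2), although Mcam was called lower when scaled by library size alone. At LPS 4 h the same 4 genes were higher than in PBS, and Icam2 was lower. Over all genes tested, 3.31% rose and 0.872% fell at 15 min, 3.78% rose and 0.799% fell at 30 min, and 19.0% rose and 13.8% fell at 4 h. The members that rose were thus 2, 4, and 4 of 8 at the 3 times, and those that fell 2, 0, and 1 of 8. For the 8 genes the log2 fold changes had medians of −0.03, 1.53, and 2.33 in the same order, beside −0.002, −0.01, and −0.01 over all genes tested. The PBS libraries are shared by these 3 comparisons, which are therefore not independent.

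**Figure D1:**
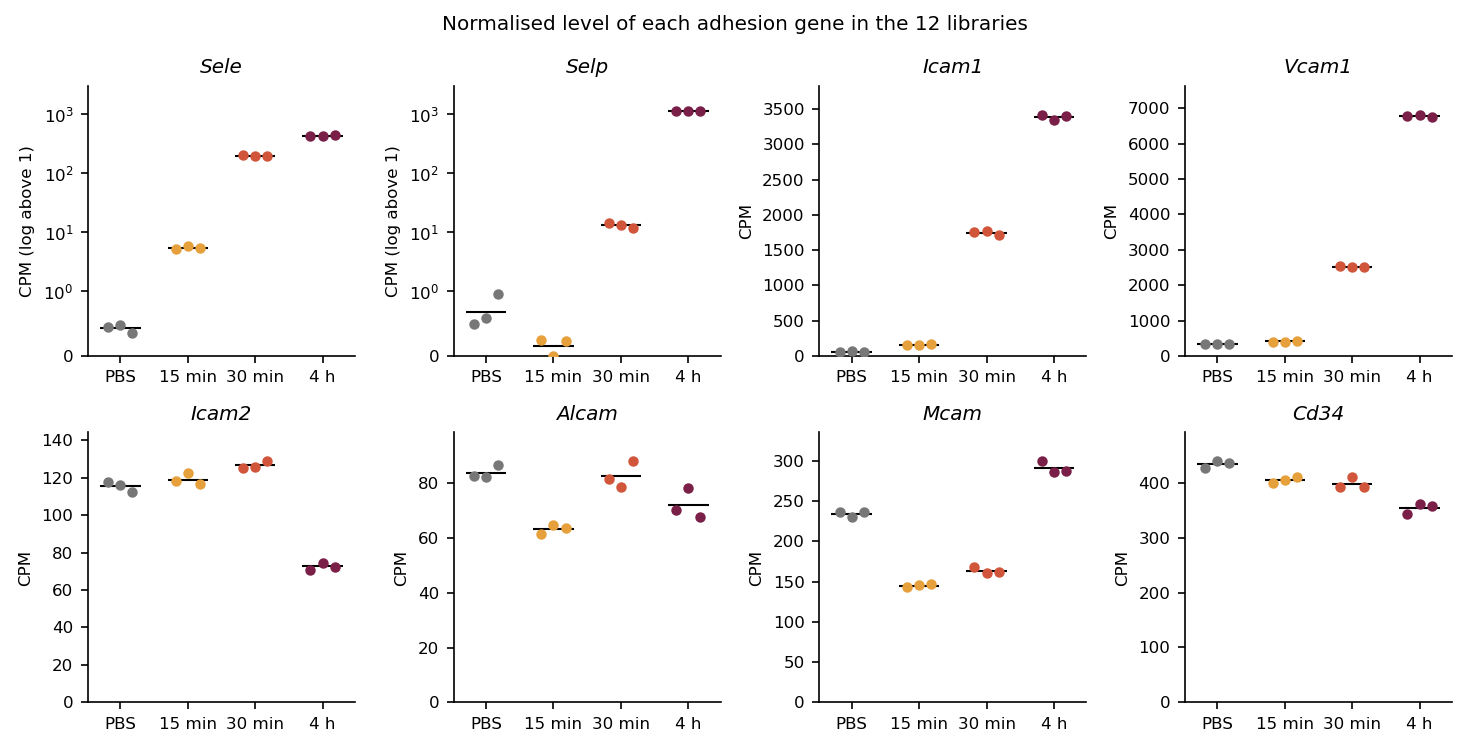
Level in CPM (vertical axis) of the 8 adhesion genes in each of the 12 libraries by group (horizontal axis), 1 point per library, with the group mean as a bar. The Sele and Selp axes are linear to 1 and logarithmic above it. Sele goes from a mean of 0.422 in PBS to 426 CPM at LPS 4 h, whereas Cd34 stays between 343 and 439 CPM in all 12 libraries.

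Sele, on chromosome 1 (164048234 to 164057677, plus strand, GRCm38), was close to silent in PBS vessels. Its level was 0.45, 0.472, and 0.344 CPM in the PBS libraries, from 12, 14, and 9 counts. At LPS 15 min it was 5.12, 5.78, and 5.25 CPM, at 30 min 198, 195, and 193 CPM, and at 4 h 421, 423, and 435 CPM. Every library of a later group lay above every library of the group before it. The log2 fold change against PBS was 3.64 ± 0.19 (SE, n = 3 per group) at 15 min, 8.83 ± 0.18 at 30 min, and 9.96 ± 0.18 at 4 h, with edgeR adjusted p-values of 3.3e-14, 5.4e-29, and 4.8e-31. Because the PBS level rests on 35 counts in all, the size of these folds depends on few reads. Between groups that do not involve PBS, Sele rose 36.4-fold from LPS 15 min to LPS 30 min and 2.18-fold from LPS 30 min to LPS 4 h. The last step had a log2 fold change of 1.13 ± 0.03 (edgeR adjusted p = 6.5e-15), but scaled by library size alone it was 0.59 and did not pass (adjusted p = 0.37).

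Selp, on the same chromosome (164115264 to 164150026, plus strand), followed another course. It held 13, 17, and 25 counts in the PBS libraries (0.487, 0.574, and 0.954 CPM) and 7, 0, and 6 counts at LPS 15 min (0.237, 0, and 0.226 CPM). Both groups thus rest on few counts, 55 and 13 in all. Gm16548, a noncoding gene on the opposite strand that overlaps Selp, was assigned 0.464 CPM in PBS and 0.177 at 15 min. At 30 min and 4 h it was assigned 0.847 and 6.41 CPM. The kit does not mark strand, so reads of Selp and Gm16548 cannot be told apart by strand, and the part of Gm16548 in the Selp values was not tested. The fall at LPS 15 min was 1.99 on the log2 scale, written as −1.99 ± 0.50 (SE, n = 3 per group, edgeR adjusted p = 0.018). It no longer passed without PBS replicate 3 (−1.67, adjusted p = 0.11) or without LPS 15 min replicate 2 (−1.50, adjusted p = 0.080), and −1.39 with an offset for transcript length did not pass either. Nor did it pass when only the groups compared were fitted (−2.03, edgeR adjusted p = 0.16). Limma on the gene table did not call it (−2.35, adjusted p = 0.95, with a pseudocount of 1, and −1.32 with 10). Of 7 platelet and megakaryocyte markers, 1 fell in the same libraries. The summed level of the list was 38.7 to 42.0 CPM in PBS and 24.7 to 29.0 CPM at LPS 15 min, with Ppbp, the platelet chemokine precursor, being the one that fell, from 8.14 ± 0.57 to 2.70 ± 0.13 CPM (SD, n = 3). Their part in the Selp value was not tested.

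Selp then climbed to 14.1, 13.2, and 11.6 CPM at 30 min and to 1118, 1125, and 1145 CPM at 4 h. All 3 libraries of each group lay above all of the group before. Against PBS the log2 fold change was 4.27 ± 0.23 at 30 min and 10.71 ± 0.22 at 4 h, with edgeR adjusted p-values of 2.9e-15 and 1.2e-29. The step from LPS 30 min to LPS 4 h was 86.9-fold, beside 2.18-fold for Sele. Put as a share of the difference in TMM-scaled CPM between PBS and LPS 4 h, Selp had reached 1.09% by 30 min and Sele 45.7%. The platelet marker sum was 56.9 to 64.9 CPM at LPS 4 h, and 2 of the 7 markers rose there against PBS and none fell, the median of the list being 0.02 on the log2 scale. These were Pf4, platelet factor 4, which went from 13.03 ± 1.38 to 24.7 ± 2.6 CPM, and Gp1bb, a chain of the von Willebrand factor receptor, which went from a mean of 2.11 to 6.07 CPM.

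Icam1 (chromosome 9, 21015985 to 21028817, plus strand), the ligand of LFA-1 and Mac-1, was already expressed in PBS vessels. It measured 62.6, 63.0, and 60.1 CPM in PBS, 157, 156, and 165 CPM at 15 min, 1752, 1769, and 1714 CPM at 30 min, and 3417, 3351, and 3403 CPM at 4 h. No library of one group overlapped another group. The log2 fold changes against PBS were 1.36 ± 0.03, 4.82 ± 0.03, and 5.77 ± 0.03 (SE, n = 3 per group), with edgeR adjusted p-values of 1.7e-17, 4.4e-31, and 5.6e-33. By LPS 30 min Icam1 had covered 50.6% of its rise in TMM-scaled CPM at 4 h. The step from LPS 30 min to LPS 4 h, 0.96 ± 0.02 on the log2 scale (edgeR adjusted p = 8.5e-14), was 0.42 when scaled by library size alone and then did not pass.

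Vcam1 (chromosome 3, 116109949 to 116129688, minus strand), the ligand of VLA-4, was also present in PBS vessels. Its libraries held 331, 343, and 327 CPM in PBS, 408, 404, and 420 at 15 min, 2555, 2516, and 2506 at 30 min, and 6788, 6816, and 6760 at 4 h. The LPS 15 min libraries all lay above the PBS libraries, but the difference, 0.30 ± 0.02 on the log2 scale, was within 1.5-fold and did not pass the test (edgeR adjusted p = 1). At LPS 30 min and LPS 4 h Vcam1 was higher by 2.92 ± 0.02 and 4.35 ± 0.02 on the log2 scale, with edgeR adjusted p-values of 8.6e-29 and 2.2e-32. Vcam1 had covered 34.0% of its rise by LPS 30 min. The shares given for Sele, Icam1, and Vcam1 depend on TMM. Scaled by library size alone, the log2 steps from LPS 30 min to LPS 4 h shrank to 0.59, 0.42, and 0.89, so larger shares were then reached by 30 min. At LPS 15 min the measured order by log2 fold change was therefore Sele, Icam1, Vcam1, and Selp, and at 4 h Selp, Sele, Icam1, and Vcam1.

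**Figure D2:**
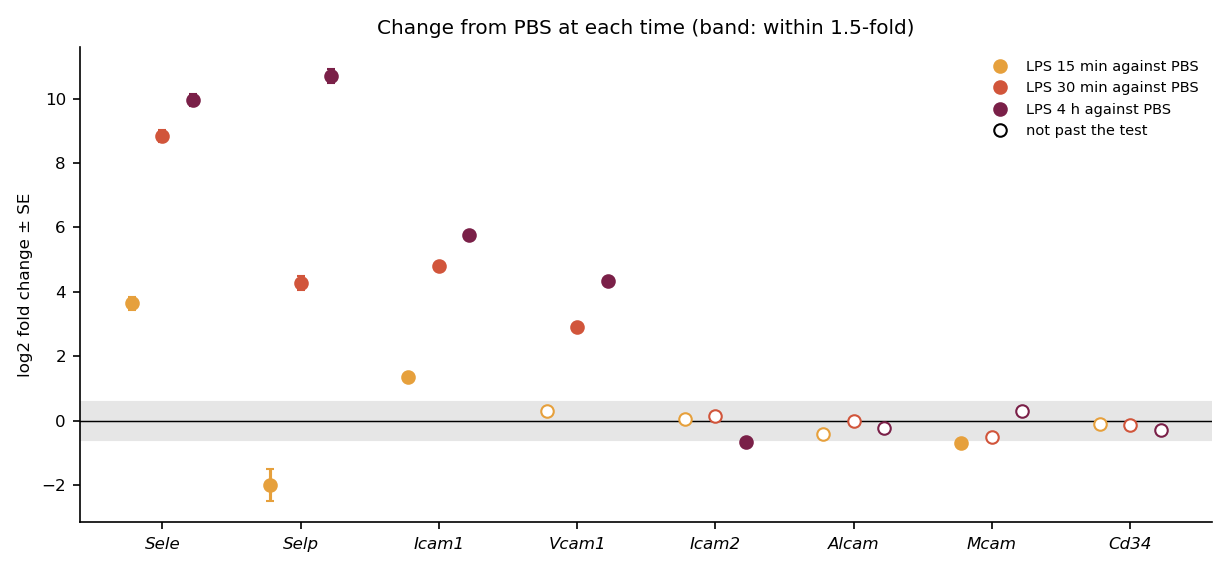
Log2 fold change against PBS (vertical axis) with its standard error for each gene (horizontal axis) at each time after LPS, fitted on 3 libraries per group. Filled points passed the test beyond 1.5-fold and open points did not, and the grey band spans changes within 1.5-fold. Selp lies at −1.99 at LPS 15 min and at 10.71 at LPS 4 h, while every Alcam and Cd34 point is open and inside the band.

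From LPS 15 min to LPS 30 min, 4 of the 8 genes rose and none fell, where 2.69% of all genes rose and 1.96% fell. These were Selp, Sele, Icam1, and Vcam1, with log2 fold changes of 6.26, 5.19, 3.45, and 2.62. From LPS 30 min to LPS 4 h, 5 of 8 rose and 1 fell, where 16.9% of all genes rose and 11.8% fell. The 5 were Selp, Vcam1, Sele, Icam1, and Mcam, and the gene that fell was Icam2. Vcam1 rose by 1.43 ± 0.02 on the log2 scale in this interval (edgeR adjusted p = 9.6e-22). Scaled by library size alone, Selp (5.90) and Vcam1 (0.89) still rose in this interval, whereas Sele, Icam1, and Mcam did not pass. Icam2 (−1.34), Alcam (−0.74), and Cd34 (−0.71) were then called lower, beside a median of −0.58 over all genes.

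Icam2 (chromosome 11, 106377656 to 106388075, minus strand), a ligand of LFA-1 that endothelial cells carry at rest, did not rise at any time. It was 118, 116, and 112 CPM in PBS, 118, 122, and 116 at 15 min, 125, 126, and 129 at 30 min, and 70.8, 74.7, and 72.5 at 4 h. The first 2 groups overlapped, and the 3 libraries at LPS 4 h lay below all others. The difference from PBS at 4 h was −0.67 ± 0.04 on the log2 scale (edgeR adjusted p = 0.017) and that from LPS 30 min was −0.80 ± 0.04 (edgeR adjusted p = 5.3e-06). The first is close to the 1.5-fold limit and was not called by DESeq2 (adjusted p = 0.26), nor without LPS 4 h replicate 1 (−0.65, edgeR adjusted p = 0.070). Pecam1, another adhesion molecule of resting endothelium, was also lower at LPS 4 h, by −1.05 ± 0.02 on the log2 scale (edgeR adjusted p = 4.9e-16).

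Mcam (chromosome 9, 44134469 to 44142727, plus strand), a laminin-binding adhesion molecule of endothelial cells and pericytes, fell early after LPS and rose between 30 min and 4 h, the rise being lost without TMM. Its PBS libraries held 237, 230, and 236 CPM. At LPS 15 min they held 143, 145, and 147 CPM, at 30 min 168, 161, and 161 CPM, and at 4 h 299, 286, and 287 CPM. No group overlapped another. The fall at 15 min was −0.69 ± 0.03 on the log2 scale (edgeR adjusted p = 0.0030), and limma on the gene table did not call it (−0.72, adjusted p = 0.064 and 0.072 with pseudocounts of 1 and 10). The value at 30 min, −0.52 ± 0.03, did not pass (edgeR adjusted p = 1), but scaled by library size alone it was −0.69 and passed (adjusted p = 0.0050). At LPS 4 h against PBS it was 0.31 ± 0.03 with TMM (adjusted p = 1) but −0.39 when scaled by library size alone. The rise from LPS 30 min to LPS 4 h, 0.83 ± 0.03 (edgeR adjusted p = 1.1e-08), was 0.29 without TMM and then did not pass. Of 4 smooth muscle markers 3 fell at LPS 15 min, their sum being 2346 to 2382 CPM in PBS, 1488 to 1508 at 15 min, and 2111 to 2159 at 30 min, whereas 7 pericyte markers summed to 3650 to 3725 CPM in PBS and 3826 to 3853 at 15 min. Their part in the Mcam value was not tested. The kit does not mark strand, and Gm10687, an antisense gene that overlaps Mcam, was assigned 42.1 CPM in PBS, 34.1 at 15 min, 32.2 at 30 min, and 47.0 at 4 h, so reads of the pair cannot be told apart by strand.

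Alcam (chromosome 16, 52248996 to 52454074, minus strand), a ligand of CD6 on lymphocytes, passed the test in none of the 5 comparisons with TMM scaling. Its level was 82.5, 82.2, and 86.5 CPM in PBS, 61.3, 64.7, and 63.4 at 15 min, 81.6, 78.6, and 87.8 at 30 min, and 70.1, 78.0, and 67.7 at 4 h. The LPS 15 min libraries lay below the PBS libraries without overlap, at −0.41 ± 0.05 on the log2 scale, and the LPS 30 min libraries overlapped them. Cd34 (chromosome 1, 194938819 to 194961279, plus strand) likewise passed in none. It was 426, 439, and 436 CPM in PBS, 400, 404, and 410 at 15 min, 391, 409, and 393 at 30 min, and 343, 360, and 358 at 4 h. The LPS 4 h libraries lay below all others, at −0.29 ± 0.03 on the log2 scale against PBS with TMM. Scaled by library size alone, Cd34 stood at −0.997 and Alcam at −0.92 at LPS 4 h, and both then passed, beside a median of −0.71 over all genes.

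Levels of different genes were compared in TPM, the relative abundance of transcripts after correction for their length, and only within a group. In PBS vessels Cd34 was the highest of the family at 304 ± 4 TPM (SD, n = 3), followed by Icam2 at 178 ± 3, Vcam1 at 168 ± 6, Mcam at 137 ± 2, Icam1 at 41.9 ± 1.4, and Alcam at 28.1 ± 2.8. Selp and Sele came last, and their PBS libraries overlapped. One PBS library gave Selp 4.90 TPM and the others 0.237 and 0.280, because reads there were assigned to Selp-201, a short intron-retaining transcript of 339 bases. At LPS 15 min the order of the first 3 was Cd34, Vcam1, and Icam2, each apart from the next. By 30 min Vcam1 (1002 ± 19 TPM) and Icam1 (957 ± 21 TPM) led, with neither overlapping the other, and Sele (92.3 ± 2.0 TPM) stood above Mcam and Alcam, with Selp still last at 6.60 ± 0.81 TPM. At LPS 4 h the order was Vcam1 (1789 ± 27 TPM), Icam1 (1214 ± 23), Selp (304 ± 4), Cd34 (133 ± 2), Sele (132 ± 2), Mcam (90.6 ± 3.7), Icam2 (60.1 ± 1.7), and Alcam (14.9 ± 2.4), and only the Cd34 and Sele libraries overlapped.

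Among all 54119 genes ranked by mean TPM in their own group, Vcam1 moved from rank 694 in PBS to 48 at LPS 4 h, Icam1 from 3552 to 67, Selp from 14848 to 339, and Sele from 20664 to 771. Ratios within a library show the change of order between partners. Selp per Sele was 0.0714 ± 0.0077 at 30 min and 2.30 ± 0.02 at 4 h (TPM ratio, SD, n = 3). Vcam1 per Icam1 was 4.01 ± 0.11 in PBS, 1.89 ± 0.03 after 15 min, 1.05 ± 0.01 after 30 min, and 1.47 ± 0.01 after 4 h. Icam1 per Icam2, the induced against the constitutive LFA-1 ligand, was 0.236 ± 0.005 in PBS and 20.2 ± 0.8 at LPS 4 h.

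**Figure D3:**
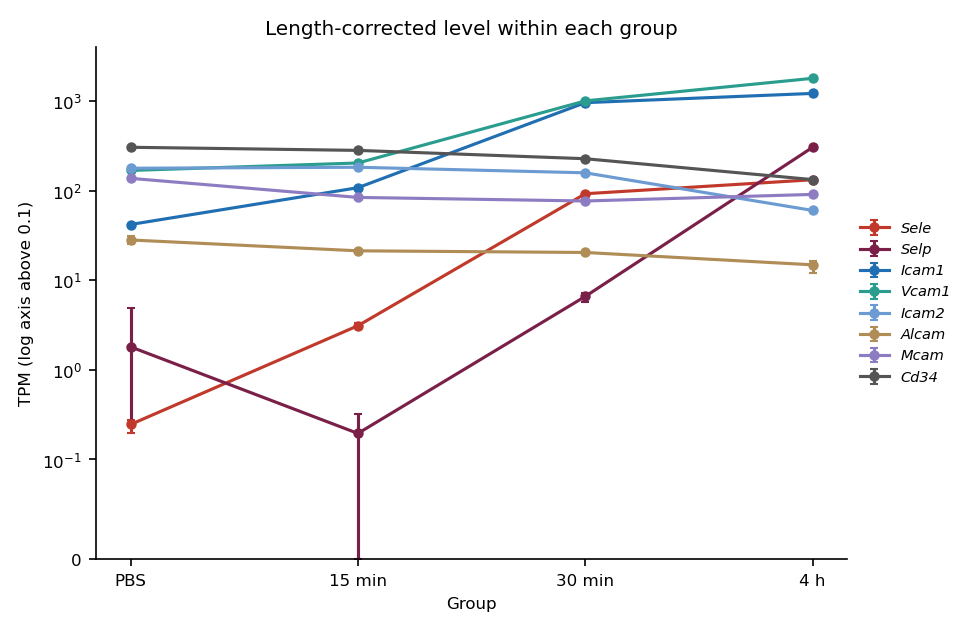
Mean level in TPM (vertical axis, logarithmic above 0.1 and linear below) of each gene in the 4 groups (horizontal axis), with whiskers from the lowest to the highest of 3 libraries. TPM are relative within a group, so the order at each position, not the slope of a line, is to be read, and Selp goes from the last position at LPS 30 min (6.60 TPM) to the third at LPS 4 h (304 TPM).

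The transcript-level estimates add a view of which forms of each gene were counted. Sele has a single annotated transcript. For Icam1, the coding form Icam1-201 took 95.5% of the TPM in PBS, and the rest was Icam1-202, a transcript annotated as retaining an intron. The Icam1-202 share was 4.88%, 4.13%, and 4.48% in the PBS libraries, 6.94%, 6.34%, and 7.34% at 15 min, 4.70%, 4.80%, and 4.50% at 30 min, and 2.20%, 2.43%, and 2.30% at 4 h. It was thus highest 15 min after LPS, with no overlap with the other groups, and lowest at LPS 4 h. These shares rest on 193, 744, 4706, and 2791 estimated counts per group. Against PBS, the LPS 4 h share differed by −2.18 percentage points (2-sided exact permutation test, p = 0.1, the smallest that 3 against 3 libraries allow).

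For Vcam1, Vcam1-203, a shorter coding form of 5 exons where Vcam1-201 has 9, took 9.13%, 10.1%, and 10.9% in PBS, 8.62%, 8.44%, and 7.88% at 15 min, 4.22%, 3.87%, and 3.78% at 30 min, and 6.003%, 6.16%, and 5.84% at 4 h. The 4 groups did not overlap, and the lowest share was at LPS 30 min. The change from PBS to LPS 4 h was −4.06 percentage points (exact permutation p = 0.1, the smallest possible). Its estimated counts nonetheless went from 2064 in the PBS group to 12601 at LPS 4 h. The 3 intron-retaining transcripts of Selp together took 33.5% ± 6.7 (SD, n = 3) of its TPM at 30 min and 7.07% ± 0.64 at 4 h, from 122 and 883 estimated counts, a sum formed after the values were seen. Of the estimated counts of Selp they took 13.7% and 1.85% at these times. In PBS and at LPS 15 min they held only 5.86 and 11.6 estimated counts. Vcam1's intron-retaining transcript took 2.81% ± 0.24 in PBS, 3.23% ± 0.12 at 15 min, 3.12% ± 0.06 at 30 min, and 2.19% ± 0.05 at 4 h.

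Mcam-202, a coding form with 1 exon fewer than the 16 of Mcam-201, took 16.6% ± 0.8 in PBS, 10.5% ± 0.5 at 30 min, and 18.4% ± 2.0 at 4 h, with overlapping libraries between PBS and LPS 4 h. Cd34-202 took 33.3% ± 2.7 in PBS and 29.2% ± 1.8 at LPS 4 h (−4.07 points, exact permutation p = 0.1, the smallest possible). Icam2-201 took 95.4% ± 1.4 in PBS and 94.1% ± 1.6 at LPS 4 h (exact permutation p = 0.3). For Alcam the long coding form Alcam-201 took 78.9% ± 7.6 in PBS and 64.3% ± 10.74 at LPS 4 h (exact permutation p = 0.2). Its share in the LPS 4 h libraries was 57.7%, 58.6%, and 76.7%. Alcam-205, a shorter coding form, took 0% in PBS and 10.7%, 22.5%, and 0% in the same LPS 4 h libraries. This rests on 128 estimated counts (exact permutation p = 0.4). Alcam-207, another shorter coding form, went from 0.418% ± 0.232 to 6.13% ± 0.87 on 10 and 77 estimated counts. With an offset for transcript length the Alcam value at 4 h against LPS 30 min turned from −0.20 to 0.12 on the log2 scale, neither of them past the test.

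**Figure D4:**
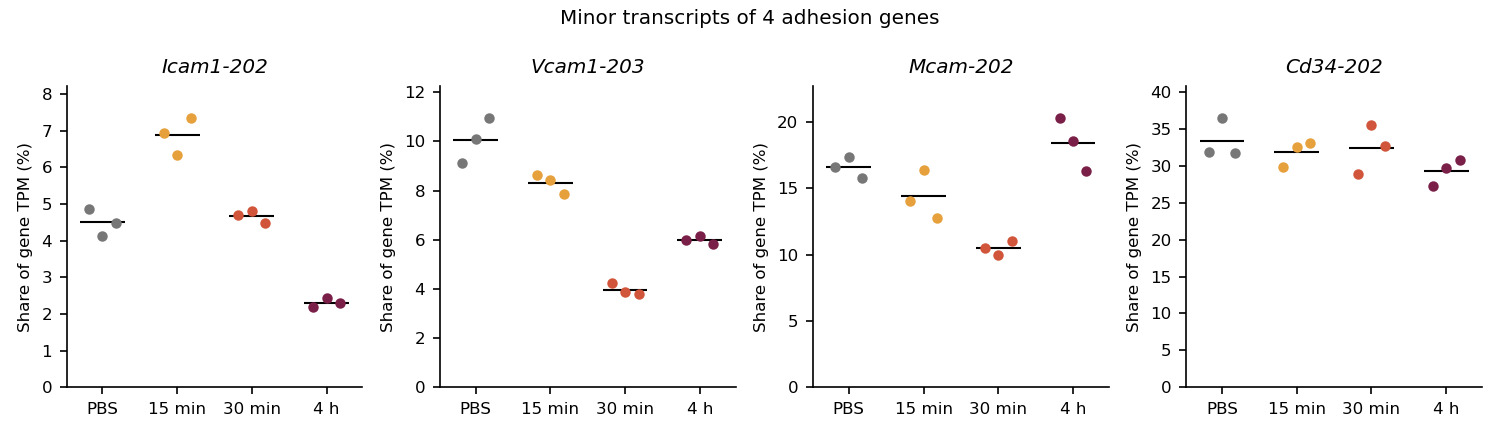
Share of a gene's TPM (percent, vertical axis) taken by one minor transcript in each library by group (horizontal axis), with group means as bars. Icam1-202 peaks at LPS 15 min (6.34% to 7.34%) and Vcam1-203 is lowest at LPS 30 min (3.78% to 4.22%).

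Partners of these molecules on leukocytes were read against the shares of all genes called at each time, 4.18% at 15 min, 4.58% at 30 min, and 32.8% at 4 h in either direction. Of 13 counter-receptor genes considered, 12 were tested. At LPS 15 min and at 30 min none passed edgeR's test beyond 1.5-fold, where unadjusted p-values below 0.05 numbered 1 and 0. Without that limit 8 and 3 of them passed edgeR's quasi-likelihood test, and limma and DESeq2 called 0. Over all genes, 38.6% and 36.9% passed without the limit. At LPS 4 h 5 of 12 rose and none fell, beside 19.0% and 13.8% of all genes, and DESeq2 called 4. The list's median log2 fold change was −0.35, −0.26, and 0.29 at the 3 times, the last being −0.41 when scaled by library size alone, where 4 rose and 4 fell. The 4 largest rises were Cd44, a hyaluronan receptor that also carries E-selectin ligands (2.98 ± 0.17 to 43.0 ± 3.9 CPM, SD, n = 3), Itgal, the alpha chain of LFA-1 (2.67 ± 0.38 to 21.2 ± 2.3 CPM), Itgam, the alpha chain of Mac-1 (5.88 ± 0.69 to 33.4 ± 5.1 CPM), and Itgb2, the beta chain that LFA-1 and Mac-1 share (5.61 ± 0.32 to 23.1 ± 1.8 CPM). Itga4, the alpha chain of VLA-4, was at 24.7 CPM in PBS and 21.4 CPM at LPS 4 h and did not pass. Neutrophil and monocyte markers were higher in the same libraries. The summed level of 9 neutrophil markers was 4.50 to 5.15 CPM in PBS and 5.54 to 7.93 CPM at 30 min. At 4 h it was 208 to 210 CPM, led by S100a9 and S100a8. S100a9 went from 1.22 CPM in PBS to 91.8 at 4 h, and S100a8 from 0.815 to 57.3 CPM. The defining genes Ly6g and Mpo were at 0 in PBS and at 0.297 and 0.0964 CPM at 4 h. Of the 7 tested, 4 (Mmp8, Camp, Ngp, and Retnlg) passed the filter on low counts only through the LPS 4 h libraries. Of the 3 monocyte markers, Plac8 went from 0.592 to 29.3 CPM and Ly6c2 from 38.9 to 83.1 CPM, both past the test at 4 h, and Ccr2 from 2.99 to 3.88 CPM, not past it, and their sum was 38.5 to 47.5 CPM in PBS and 114 to 121 CPM at 4 h. The part of these markers in the values of the integrin genes was not tested.

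Genes that build or display selectin ligands and vessel wall partners were followed as further lists. Of 10 tested genes of selectin ligand synthesis, none passed at 15 min or LPS 30 min in edgeR's test beyond 1.5-fold, where unadjusted p-values below 0.05 numbered 0 at both times. Without that limit 4 and 5 of them passed edgeR's quasi-likelihood test, and limma and DESeq2 called 0. At LPS 4 h 2 of the 10 rose and 1 fell, counts near the 19.0% and 13.8% of all genes that did. There Fut4, a fucosyltransferase, rose from 0.860 ± 0.306 to 6.23 ± 1.41 CPM (SD, n = 3), B4galt1, a galactosyltransferase, rose from 57.1 ± 1.9 to 154 ± 6 CPM, and Gcnt1, which branches O-glycans, fell from 24.0 ± 1.4 to 6.88 ± 1.16 CPM. The list's median was −0.01, −0.02, and 0.37 at the 3 times, the last being −0.33 without TMM. Of 10 tested junctional and transmigration genes (Cd99 was listed but not matched), none passed at LPS 15 min, 0 had an unadjusted p below 0.05, limma and DESeq2 called 0, and edgeR's test without the fold limit called 7. At LPS 30 min Pvr, the poliovirus receptor CD155, rose by 0.86 ± 0.05 on the log2 scale (edgeR adjusted p = 5.8e-05), a call lost when scaled by library size alone and in limma. At 4 h 5 of the 10 rose and 2 fell, beside 19.0% and 13.8% of all genes. The 4 largest rises there were Pvr (3.38 ± 0.05), Cd47 (2.27 ± 0.03), Cdh5, encoding VE-cadherin (1.96 ± 0.02), and F11r, encoding JAM-A (1.69 ± 0.03), as log2 fold changes with SE, and the genes that fell were Pecam1 and Cd99l2. The medians of this list were −0.12, −0.0017, and 0.35, the last being −0.35 without TMM. Scaled by library size alone, 4 of the list rose and 5 fell at 4 h, beside 1907 higher and 8555 lower over all genes.

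Sialomucins and other endothelial adhesion molecules came next. Of 14 tested, 2 rose and 2 fell at 15 min, 2 rose and 1 fell at 30 min, and 3 rose and 4 fell at 4 h, beside 3.31% and 0.872%, 3.78% and 0.799%, and 19.0% and 13.8% of all genes, and the last count is thus near the share of all genes for rises. The rises at 30 min include Icam4, and those at 4 h include Icam4 and Madcam1. Both genes passed the filter on low counts only through groups where they are high, so the counts of rises give no support at these times. The medians were 0.17, 0.07, and −0.34, the second being −0.10 without TMM. Ackr1, the atypical chemokine receptor of venules, rose at each time, from 9.64 ± 0.46 CPM in PBS to 19.7 ± 0.9, 149 ± 2, and 1568 ± 19 CPM (SD, n = 3), and Clec14a, an endothelial C-type lectin, fell at each, from 169 ± 2 to 86.0 ± 0.6, 71.0 ± 1.3, and 15.5 ± 2.5 CPM. Madcam1, the mucosal addressin that binds integrin alpha4 beta7, went from 0.183 ± 0.069 to 6.94 ± 0.51 CPM at LPS 4 h, and it passed the filter on low counts only through the LPS 4 h libraries, so that its call gives no support. Aoc3, encoding vascular adhesion protein 1, fell at 15 min (−0.85 ± 0.07 on the log2 scale) and at 4 h (−1.11 ± 0.07). Icam4 and Icam5 follow Icam1 on the same strand, the first 555 bases after it and the second 1477 bases further on. Icam5, known from forebrain neurons, rose at 15 min from 29.1 ± 1.9 to 72.6 ± 2.9 CPM (edgeR adjusted p = 3.9e-11) and was 42.5 ± 1.8 CPM at 30 min and 39.3 ± 0.4 at 4 h, neither of which passed. The sum of 3 neuronal markers was 215 to 223 CPM in PBS and 286 to 296 CPM at LPS 15 min, and its part in the Icam5 value was not tested. Icam4 rose at 30 min (3.43 ± 0.62 on the log2 scale) and LPS 4 h (2.88 ± 0.64), from means of 0.189, 2.04, and 1.38 CPM in PBS, LPS 30 min, and LPS 4 h, having passed the filter through those LPS libraries only. The calls of Icam4 thus give no support either.

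The last list held genes that anchor adhesion molecules to the cytoskeleton, store them, or cleave them from the surface. Of 13 tested, 1 rose and 1 fell at 15 min, none passed at 30 min, and 8 rose and 4 fell at 4 h, where 19.0% and 13.8% of all genes did, and the medians were −0.22, −0.14, and 0.92, the last being 0.22 without TMM. Scaled by library size alone, 4 rose and 4 fell at 4 h, beside 1907 higher and 8555 lower over all genes. In the LPS 30 min comparison 1 gene had an unadjusted p below 0.05, edgeR without the fold limit called 10, and limma and DESeq2 called 0. Adam8, a sheddase, rose at LPS 15 min (1.09 ± 0.13 on the log2 scale) and Mmp14 fell (−0.96 ± 0.07). The 4 largest changes at LPS 4 h were Adam9, another sheddase (2.54 ± 0.04), Rab3d, a GTPase of secretory granules (−1.93 ± 0.10), Msn, encoding moesin (1.64 ± 0.02), and Mmp9 (1.502 ± 0.29). Mmp14 was among the genes that rose there (1.40 ± 0.06), and Rab27a (−1.03 ± 0.12) and Adam10 (−0.77 ± 0.03) were among those that fell. Vwf, the cargo of Weibel-Palade bodies beside P-selectin, fell from 1397 ± 33 to 857 ± 22 CPM (edgeR adjusted p = 1.9e-05) while Selp rose.

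**Figure D5:**
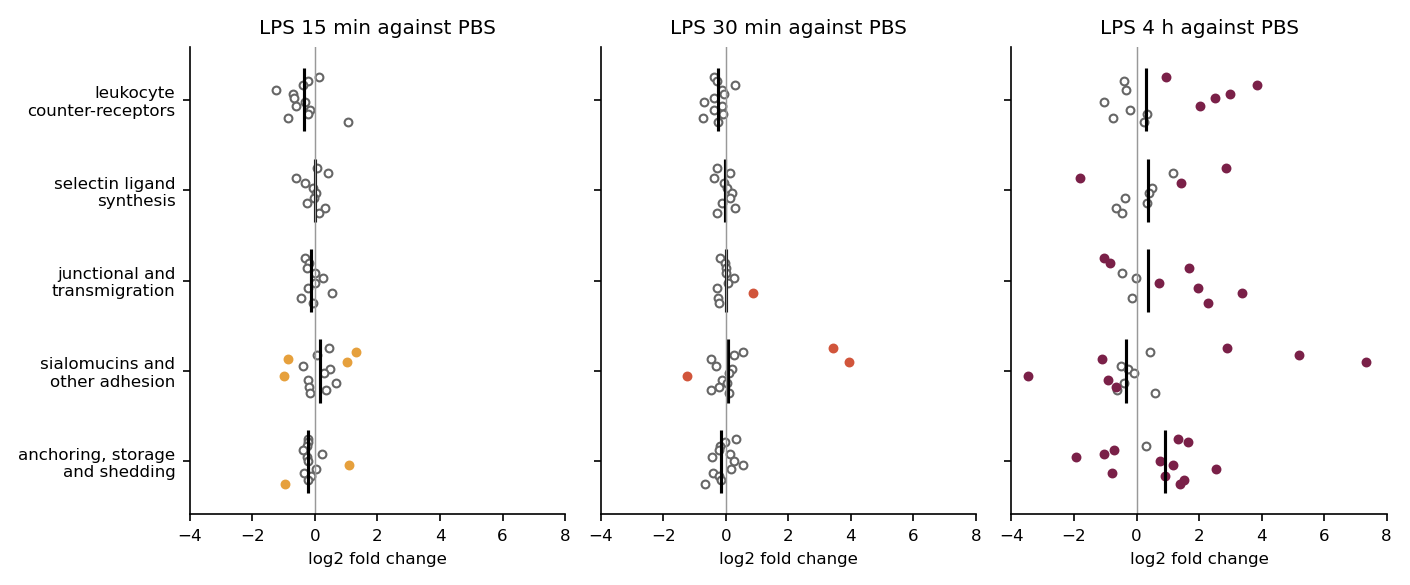
Log2 fold change against PBS (horizontal axis) of each tested gene in 5 lists of partner genes (vertical axis), for the 3 times in separate panels. Filled points passed the test beyond 1.5-fold, open points did not, and the bar is the list's median. In the LPS 4 h panel 5 counter-receptor genes and 8 anchoring, storage, and shedding genes are filled on the right, and filled points are also more frequent over all genes there (32.8%, against 4.18% and 4.58% at 15 and 30 min). Scaled by library size alone, 4 genes of each of these lists were called higher at 4 h and 4 lower.

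Genes with a similar time course were found by the root mean square difference of log2(CPM + 0.5), centred on the PBS mean, over the 9 LPS libraries, among genes with a mean of at least 5 CPM. The nearest gene to Icam1 was Tnfaip3, an inhibitor of NF-kB signalling, at a difference of 0.29, followed by Nfkbiz and Tnf at 0.59 and 0.62. Nearest to Vcam1 were Gem, Rel, and Gm38357 at 0.24, 0.26, and 0.31. Sele and Selp had no close neighbour by this measure, the nearest being Cxcl2 at 1.47 and Ccl2 at 1.02. Their PBS means, 0.422 and 0.672 CPM, lie close to the added 0.5, which lowers their measured rises, so their distances depend on that setting. Near Icam2 lay Cd151 and Jmjd8 at 0.060 and 0.061, for Mcam Syt12, Rbm45, and Dpysl3 at 0.12 to 0.13, for Alcam Itgb5, Ldb3, and Myl9 at 0.084 to 0.091, and for Cd34 B230219D22Rik, Sf3b2, and Ccar2 at 0.032 to 0.037. The differences are small for genes that moved little, since any gene near its PBS level then lies close, and they can be larger for genes that moved far.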

How the data were processed

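RNA of isolated cerebral vessels had been sequenced by the submitters as full-length, unstranded cDNA libraries with paired 150-base reads. The authors quantified transcripts with Salmon 1.2.1 on GRCm38.p6, and deposited, per library, each transcript's estimated count and its TPM. They also deposited a gene table of counts normalized by DESeq2 size factors, a signal in arbitrary units after correction for transcript length. Per-library columns without a matched library numbered 0.

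For each gene of GENCODE M21, the estimated counts of its transcripts were added (139852 of 140948 transcripts joined), rounded, scaled by TMM, and fitted with edgeR 4.0.16 in R 4.3.3 on all 12 libraries. Genes passed filterByExpr (minimum count 10, minimum total 15, share 0.7). The quasi-likelihood test against 1.5-fold was called at a Benjamini-Hochberg adjusted p below 0.05. SE is the Wald error of the fitted log2 fold change. Isoform shares of at least 5% were compared by exact permutation. Depth was 18309177 to 25882028 estimated fragments, which limits genes with few counts such as Selp at LPS 15 min, and replicates are separate pools of mice.

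The members and lists were chosen with earlier results of these data known. Named partner genes are, per list and time against PBS, the up to 4 called genes of largest change, and some genes that moved against them. Others were named after their values were seen, namely Pecam1 beside Icam2, Itga4, Vwf, and the platelet, neutrophil, and neuronal markers. The sequences are from RefSeq's promoter table, with 6 of 8 members matched. Alternatives were DESeq2 1.42.0, limma 3.58.1 on the log2 gene table, other scalings, filters and tests, a length offset, a replicate block, and leaving out each library. Results on some genes, a list member among them, are not reported here. The fitting script was tested on simulated data.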

Additional observations from a re-analysis of the deposited data

Results flagged for a closer look

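For 6 members the change between neighbouring LPS times was itself past edgeR's test beyond 1.5-fold, so that their effects against PBS differed between times. From LPS 15 min to LPS 30 min the log2 differences were 5.19 for Sele, 6.26 for Selp, 3.45 for Icam1, and 2.62 for Vcam1. From LPS 30 min to LPS 4 h they were 1.13 for Sele, 6.44 for Selp, 0.96 for Icam1, 1.43 for Vcam1, 0.83 for Mcam, and −0.80 for Icam2. In this second step Sele, Icam1, and Mcam did not pass when scaled by library size alone. Groups of 3 libraries are too small for the check on single outlying libraries.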

How the results depend on the processing

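Of the values of the 8 genes under 11 alternative settings, 402 kept their direction and side of the threshold, 13 no longer passed, 19 newly passed, and 6 changed sign. Called members, 4, 4, 5, and 4 of 8 for LPS 15 min, LPS 30 min, and LPS 4 h against PBS and LPS 30 min against LPS 15 min, became 7, 7, 8, and 7 without a fold limit (where 38.6%, 36.9%, 68.5%, and 37.4% of all genes were called), and 2 at LPS 15 min by limma on the gene table with a pseudocount of 1 or 10. Limma called neither Mcam and Selp at LPS 15 min nor Selp at LPS 30 min, and the gene table's Selp value in PBS replicate 3 stands apart. Signs turned, with no call on the side of the main value, for Icam2 scaled by library size alone (−0.033 at LPS 30 min against PBS, −0.051 against LPS 15 min), for Mcam at LPS 4 h so scaled (−0.39), for Alcam at LPS 4 h against LPS 30 min with the length offset (0.12) or limma (0.13 and 0.12), and for Alcam at LPS 30 min against PBS without PBS replicate 3 (0.0051) or LPS 30 min replicate 2 (0.017), in a range of −0.062 to 0.017 over libraries left out. Changes in share from PBS to LPS 4 h turned without PBS replicate 3 for Selp-205 (range over libraries left out −7.21 to 39.3 points), Selp-201 (−46.0 to 0.58), and Alcam-202 (−7.14 to 0.46), and without LPS 4 h replicate 1 for Alcam-204 (−2.24 to 3.44). The cause was not tested.

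Without a fold limit, beside the same shares of all genes, list genes called at LPS 15 min were 8 counter-receptor, 4 ligand synthesis, 7 junctional, 11 sialomucin, and 10 anchoring genes, at LPS 30 min 3, 5, 7, 11, and 10, and at LPS 4 h 10, 10, and 13 for the counter-receptor, ligand synthesis, and sialomucin lists. With the fold limit applied after that test, they were 5 counter-receptor and 1 ligand synthesis gene at LPS 15 min, 1 anchoring gene at LPS 30 min, and 5 ligand synthesis genes at LPS 4 h. By library size alone they were 0 junctional and 1 anchoring gene at LPS 30 min, and 8 counter-receptor, 6 ligand synthesis, and 11 sialomucin genes at LPS 4 h. At LPS 4 h so scaled, 4 junctional genes were higher and 5 lower, and 4 anchoring genes were higher and 4 lower. Limma called 1 anchoring gene at LPS 15 min and 0 junctional genes at LPS 30 min, where Pvr was the one lost.

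Leaving out each library gave 3 to 4 called members at 15 min, 4 at 30 min, and 4 to 5 at 4 h. Samples sharing a replicate number did not deviate together (r from −0.05 to 0.07 in 18 pairs of libraries), so the numbers are no pairing. A replicate block left 4, 4, and 5 members called against PBS. Depth limits Selp in PBS and at LPS 15 min and Sele in PBS, each with under 60 counts per group.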
